A study of Homo sapiens with 346 samples.

Results

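The expressed ZNF genes are the genes whose symbol is ZNF and a number, and they were selected on their level in live cells: a mean of at least 5 TPM (a level corrected for transcript length and scaled to a fixed sum in each cell) over the live cells of either cell line. Of 523 ZNF genes listed among 31463 genes, 160 met this mean. A total of 8577 genes of all kinds met the same mean, and these are the background for each count. Because live levels chose the genes, those levels are given as a description. Just outside the limit lay ZNF764 at 4.893, ZNF808 at 4.983 and ZNF185 at 4.998 TPM, and just inside lay ZNF26 at 5.015, ZNF473 at 5.016 and ZNF79 at 5.156 TPM.

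Zinc fingers of the C2H2 type are short folds held by a zinc ion, and most proteins of this family use an array of them to bind DNA. Many also carry a KRAB domain, which recruits TRIM28 and, through it, the histone methyltransferase SETDB1, and numerous KRAB genes sit in clusters on chromosome 19 where they silence transposable elements. Other members bind RNA or take part in ribosome assembly or in the mitotic spindle, and some act at promoters or in chromatin complexes.

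Single cells were taken from HCT-116, a human colorectal carcinoma line, and from cells labelled HepG2, the name of a human liver carcinoma line. In each line, live cells were set against cells fixed in 80% methanol and kept for 1 week at low temperature, all grown beforehand in DMEM with fetal bovine serum and antibiotics. Full-length cDNA was made with Smart-seq2, which copies RNA with a poly(A) tail and does not mark strand. The tables held 91 live and 92 fixed HCT-116 cells and 68 live and 83 fixed HepG2 cells, and 12 labelled cells had no column. Fixed and live libraries were made at different times, so treatment and library batch cannot be told apart, and the labels name no separate cultures. The methods describe the HepG2 work as repeated and the HCT-116 work as a single experiment, but nothing in the columns separates the HepG2 repeats. Each line and treatment was therefore treated as 1 sample, no test between groups was made, and every spread is an SD or range over cells.

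The median column held 2.5 M reads (M, mega) for live HCT-116, 1.8 M for fixed HCT-116, 2.4 M for live HepG2 and 2.0 M for fixed HepG2. In the HepG2 table, 1 live and 1 fixed column were identical and 6 fixed columns were very similar to another column. Defining liver markers were not seen in the cells labelled HepG2. Of 17 hepatocyte genes, 11 were listed, and ALB, AFP, APOB, APOH, FGA and RBP4, which were not, counted as 0. In HepG2 cells, live or fixed, 0 of the 17 passed 1 TPM in 50% or more of the cells. Their summed level had a median of 0.295 TPM (live) and 0.271 TPM (fixed), with a highest cell at 89.9 TPM. In the same cells, 6 of 7 luminal breast epithelial genes passed (ESR1, GATA3, TFF1, FOXA1, XBP1 and KRT19), and their summed level ranged from 1380 to 26011 TPM in live cells against 119.1 to 3707 TPM in live HCT-116 cells. In HCT-116, CDX2 and EPCAM passed among 7 intestinal genes, and EPCAM passed in HepG2 cells as well. XBP1 and KRT19 of the luminal list and CPS1 of the hepatocyte list also passed in HCT-116, live and fixed. The part of this marker pattern in the differences between the lines was not tested, and HepG2 is used below as the name on the label only. The tables of both lines were quantified separately with the same tools, so levels set across lines rest on separate tables.

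Some members had little or no RNA in 1 line. In HCT-116, 16 members (10.0%, against 2.94% of all genes past the mean) had a mean below 0.5 TPM under both treatments. All 16 had passed the mean in HepG2 alone. Of these, 12 are on chromosome 19, as are 44 of all 77 members that passed in this way. The 16 are 20.8% of those 77 members, against 19.5% of the 1294 genes of all kinds that passed in HepG2 alone. ZNF655 was the only member (0.625%) below 0.5 TPM under both treatments in HepG2, against 2.40% of all genes past the mean. A gene this low in HepG2 can pass the mean through HCT-116 alone. Among genes that passed in that way, 1 of 13 members and 206 of 1161 genes of all kinds were as low in HepG2. The 250 bases before the RefSeq start are printed for 3 of the 16 genes, for ZNF655, and for ZNF207, a gene with high levels in every group. These are examples and do not stand for the other genes. CpG dinucleotides, the main site of DNA methylation in mammals, are in capitals, and the sequences were taken from RefSeq on GRCh38.p14.
ZNF93, chr19:19900696-19900945, plus strand: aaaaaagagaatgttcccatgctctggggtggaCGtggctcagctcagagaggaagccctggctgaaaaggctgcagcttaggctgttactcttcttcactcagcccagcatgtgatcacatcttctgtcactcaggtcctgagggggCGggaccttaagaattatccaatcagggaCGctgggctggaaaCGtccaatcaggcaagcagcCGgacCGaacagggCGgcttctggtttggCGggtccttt
ZNF595, chr4:53071-53320, plus strand: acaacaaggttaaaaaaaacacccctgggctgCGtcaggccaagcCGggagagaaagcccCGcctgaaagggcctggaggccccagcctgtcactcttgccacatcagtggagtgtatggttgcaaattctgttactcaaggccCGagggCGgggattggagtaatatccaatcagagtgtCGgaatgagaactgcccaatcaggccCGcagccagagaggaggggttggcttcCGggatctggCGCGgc
ZNF350, chr19:51986841-51987090, minus strand: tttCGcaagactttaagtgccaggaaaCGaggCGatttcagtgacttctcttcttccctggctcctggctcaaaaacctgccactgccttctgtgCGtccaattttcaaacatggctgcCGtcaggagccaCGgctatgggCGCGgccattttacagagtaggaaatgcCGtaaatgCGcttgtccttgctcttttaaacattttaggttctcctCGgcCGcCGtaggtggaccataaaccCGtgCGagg
ZNF655, chr7:99558392-99558641, plus strand: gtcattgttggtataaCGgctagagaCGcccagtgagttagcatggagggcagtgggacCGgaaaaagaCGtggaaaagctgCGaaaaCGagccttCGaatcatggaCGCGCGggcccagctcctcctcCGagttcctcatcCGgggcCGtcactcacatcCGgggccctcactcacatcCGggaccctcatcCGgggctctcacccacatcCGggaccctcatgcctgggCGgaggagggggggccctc
ZNF207, chr17:32349907-32350156, plus strand: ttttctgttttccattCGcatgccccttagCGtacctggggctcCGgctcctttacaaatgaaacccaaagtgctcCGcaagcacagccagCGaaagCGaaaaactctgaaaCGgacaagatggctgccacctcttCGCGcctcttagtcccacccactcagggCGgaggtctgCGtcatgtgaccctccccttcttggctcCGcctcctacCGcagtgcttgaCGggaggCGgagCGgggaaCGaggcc

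The printed 250 bases held 8 CpGs for ZNF93, 10 for ZNF595 and 15 for ZNF350, against 18 for ZNF655 and 17 for ZNF207. Promoters of 300 bases (250 before and 50 after the start) were found for 85.6% of the 160 members. Their ratio of observed to expected CpGs had a median of 0.802, against 0.857 for 6627 genes past the same mean and 0.580 for all 27305 promoters. In 15 of the 16 genes near 0 in HCT-116 the median ratio was 0.652 (quartiles 0.474 and 0.829), and in the other members it was 0.807 (0.692 and 0.920). The quartile ranges overlapped, and the other members past the mean in HepG2 alone were not set apart. Methylation was not measured here.

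Motif letters were searched on both strands of the windows of 300 bases. CCGGAAG, a core bound by ETS factors, was in 42.3% of the promoters found for members, in 23.4% of those of all genes past the same mean and in 10.7% of all promoters. ACTACAA, letters found within the longer site bound by ZNF143, was in 8.76%, 4.29% and 2.95% of them, in the same order. GGGCGG, the GC box, was in 70.1% of members' promoters against 71.5% for genes past the mean. Among the 5 printed genes, ZNF595 held CCGGAAG within the printed bases, on the reverse strand as cttccgg, and ZNF655 held it only in the 50 bases after the start, which are not printed. Of the 15 genes near 0 in HCT-116 with a promoter found, 4 held it. A match describes these letters only.

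Members were spread over a wide range of levels. In live HCT-116 cells 83 of the 160 reached 5 TPM, 36 reached 10 TPM and 3 reached 50 TPM, and in live HepG2 cells 91.9% reached 5 TPM, 49 genes reached 10 TPM and 3 reached 50 TPM. Of the 160, 70 passed the mean in both lines, 77 in HepG2 alone and 13 in HCT-116 alone. For all genes past the mean, 6122 passed in both lines, 1294 in HepG2 alone and 1161 in HCT-116 alone.

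The 10 highest live means in HCT-116 belonged to ZNF593, ZNF207, ZNF146, ZNF330, ZNF706, ZNF511, ZNF24, ZNF581, ZNF622 and ZNF655, in falling order. In HepG2 they belonged to ZNF706, ZNF207, ZNF593, ZNF32, ZNF146, ZNF511, ZNF410, ZNF622, ZNF217 and ZNF24. ZNF706, a small protein with a single zinc finger, had means of 39.4 ± 13.4 TPM (live) and 51.5 ± 19.9 TPM (fixed) in HCT-116 and of 74.97 ± 23.9 TPM (live) and 111.1 ± 26.9 TPM (fixed) in HepG2. ZNF146, a protein made almost wholly of zinc fingers, had 56.7 and 69.8 TPM in HCT-116 and 39.3 and 39.99 TPM in HepG2, live before fixed. ZNF330, a nucleolar protein, had 40.6 and 50.2 TPM in HCT-116 and 17.2 and 30.8 TPM in HepG2. In the same order ZNF32 had 14.4, 19.5, 43.6 and 65.9 TPM, and its log2 ratio of HepG2 to HCT-116 was 1.54 for live and 1.71 for fixed cells. ZNF511 stayed between 34.7 and 40.4 TPM over the 4 groups.

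Of these genes, ZNF207, ZNF593 and ZNF622 are on the list of members that act on RNA, ribosomes or the spindle. ZNF207, which carries the checkpoint protein BUB3 to kinetochores, had a mean in HCT-116 of 86.4 ± 34.97 TPM (SD, 91 live cells) and, once fixed, of 107.4 ± 51.8 TPM (92 cells), and its means in HepG2 were 72.4 ± 27.9 (68 live cells) and 96.6 ± 31.9 TPM (83 fixed cells). It was above 1 TPM in every cell of the 4 groups, and the lowest cell of all had 10.1 TPM. Its partner BUB3 stood at 195 TPM (live) and 234 TPM (fixed) in HCT-116 and at 128.8 TPM (live) and 190 TPM (fixed) in HepG2.

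ZNF593 and ZNF622 are homologs of yeast factors that mature the large ribosomal subunit. ZNF593 had a mean of 107.7 ± 51.3 TPM (live) and 105.5 ± 52.98 TPM (fixed) in HCT-116, and of 50.4 ± 32.9 TPM (live) and 78.9 ± 50.8 TPM (fixed) in HepG2. The ranges over cells overlapped in every pair of groups. ZNF622 varied less, with means from 24.7 to 26.1 TPM in HCT-116 and from 31.4 to 32.3 TPM in HepG2.

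ZNF346, which binds double-stranded RNA, had the widest difference between the lines on this list. Its mean was 5.78 TPM (live) and 5.42 TPM (fixed) in HCT-116, and 18.7 TPM (live) and 17.7 TPM (fixed) in HepG2, a log2 ratio of 1.54 under each treatment. ZNF638 and ZNF106, both RNA-binding proteins, lay between 16.9 and 21.98 TPM and between 5.43 and 7.41 TPM in the 4 groups. Of the 6 members on this list, 0 were 2-fold lower or higher in fixed cells of either line. Of all genes past the mean, 5.85% were lower and 0.501% higher in HCT-116, and 6.89% and 1.33% in HepG2. For 6 genes a count of 0 is close to that background.

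Among factors of chromatin and transcription, ZNF217 had the widest gap between the lines. ZNF217 is an oncogene of the 20q region, often amplified in breast cancer, and works with corepressor complexes. In HCT-116 its lowest, median and highest values were 0, 1.96 and 19.4 TPM for live cells and 0, 1.49 and 13.01 TPM for fixed cells. In HepG2 they were 5.13, 24.1 and 118.9 TPM for live cells and 1.16, 32.1 and 165.2 TPM for fixed cells. The ranges overlapped, but the median HepG2 cell lay above the highest HCT-116 cell under each treatment. The log2 ratio of HepG2 to HCT-116 was 2.97 for live and 3.43 for fixed cells.

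ZNF652, a transcriptional repressor, had means of 1.37 TPM (live) and 1.99 TPM (fixed) in HCT-116, and of 6.35 TPM (live) and 6.44 TPM (fixed) in HepG2. ZNF644, which joins the histone methyltransferases EHMT1 and EHMT2, leaned the other way, at 9.36 and 11.2 TPM in HCT-116 and 5.76 and 6.80 TPM in HepG2. ZNF410, an activator of CHD4, had 20.2 and 28.1 TPM in HCT-116 and 37.8 and 48.4 TPM in HepG2. CHD4 itself did not follow this order, at 16.2 and 14.8 TPM in HCT-116 and 11.3 and 10.6 TPM in HepG2.

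ZNF143, which binds many housekeeping promoters, had 10.6 TPM (live) and 14.5 TPM (fixed) in HCT-116 and 8.43 TPM (live) and 7.22 TPM (fixed) in HepG2. The SUMO ligase ZNF451 had means from 7.77 to 8.77 TPM in HCT-116 and from 9.02 to 11.9 TPM in HepG2. ZNF24 lay between 29.2 and 39.1 TPM and ZNF131 between 7.41 and 9.52 TPM over the 4 groups. The fixed means of ZNF143 lay about 2-fold apart between the lines. Once 1 TPM was added to each mean, as in the log2 ratios, each of these 4 genes stayed under 2-fold in every comparison. ZNF281 was also called in none of them, but its log2 ratios of fixed to live were -0.77 in HCT-116 and -0.79 in HepG2.

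ZNF655 gave the widest gap in the opposite direction. It encodes a zinc finger protein known as a partner of the signalling protein VAV, and lies on chromosome 7. In HCT-116 its lowest, median and highest values were 0, 20.2 and 58.5 TPM for live cells and 0, 19.98 and 89.4 TPM for fixed cells. In HepG2 no cell exceeded 0.898 TPM. Its means were 21.3 TPM (live) and 24.2 TPM (fixed) in HCT-116 against 0.212 TPM (live) and 0.0970 TPM (fixed) in HepG2, log2 ratios of -4.20 and -4.52. The lines overlapped only through the few HCT-116 cells near 0, since 96.7% of live and 95.7% of fixed HCT-116 cells exceeded 1 TPM.

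The 16 genes near 0 in HCT-116 were ZNF140, ZNF234, ZNF253, ZNF331, ZNF350, ZNF420, ZNF429, ZNF433, ZNF563, ZNF595, ZNF701, ZNF718, ZNF730, ZNF785, ZNF91 and ZNF93. All 16 passed the mean of 5 TPM through HepG2 alone, so the rule selected genes high there. They are 20.8% of the 77 members that passed in this way, and 19.5% of the 1294 genes of all kinds that did so were as low in HCT-116, a share close to that of the members. The set includes ZNF91 and ZNF93, which bind SVA and L1 retrotransposons, the imprinted gene ZNF331, and ZNF350, a partner of BRCA1.

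ZNF595 (chromosome 4) was above 0 in 23 of 91 live HCT-116 cells (25.3%, exact 95% interval 16.7 to 35.5), and in 0 of them above 1 TPM. In HepG2 its lowest, median and highest values were 0.218, 9.99 and 25.7 TPM for live cells and 0.603, 10.6 and 30.6 TPM for fixed cells. The lowest fixed value came from the column that is identical to a live one, and the next lowest fixed cell had 0.786 TPM. In HepG2 97.1% of live and 96.4% of fixed cells exceeded 1 TPM, whereas the highest HCT-116 cell had 1.03 TPM. ZNF93 was above 0 in 7 of 91 live and 8 of 92 fixed HCT-116 cells, and its highest value there was 1.07 TPM. Its median in HepG2 was 6.04 TPM for live and 8.07 TPM for fixed cells, although some HepG2 cells were at 0. ZNF350 was above 0 in 3 of 91 live HCT-116 cells, 1 of which had 6.95 TPM, and in 72.1% of live HepG2 cells.

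ZNF140, on chromosome 12, had a mean of 0.160 TPM over live HCT-116 cells and of 13.6 TPM over live HepG2 cells, and its log2 ratio between the lines was 3.65 for live and 3.90 for fixed cells. It was nevertheless above 0 in 65.9% of live HCT-116 cells, with 1.10% above 1 TPM. The quantifier shares reads among similar transcripts, so a value just above 0 can rest on part of a read, and zinc finger paralogs are alike in sequence. The span of ZNF140 also overlaps ZNF891 on the opposite strand. Over the 16 genes, the median share of cells above 1 TPM was 0.549% (live) and 1.09% (fixed) in HCT-116, and 76.5% (live) and 73.5% (fixed) in HepG2.

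**Figure D1:**
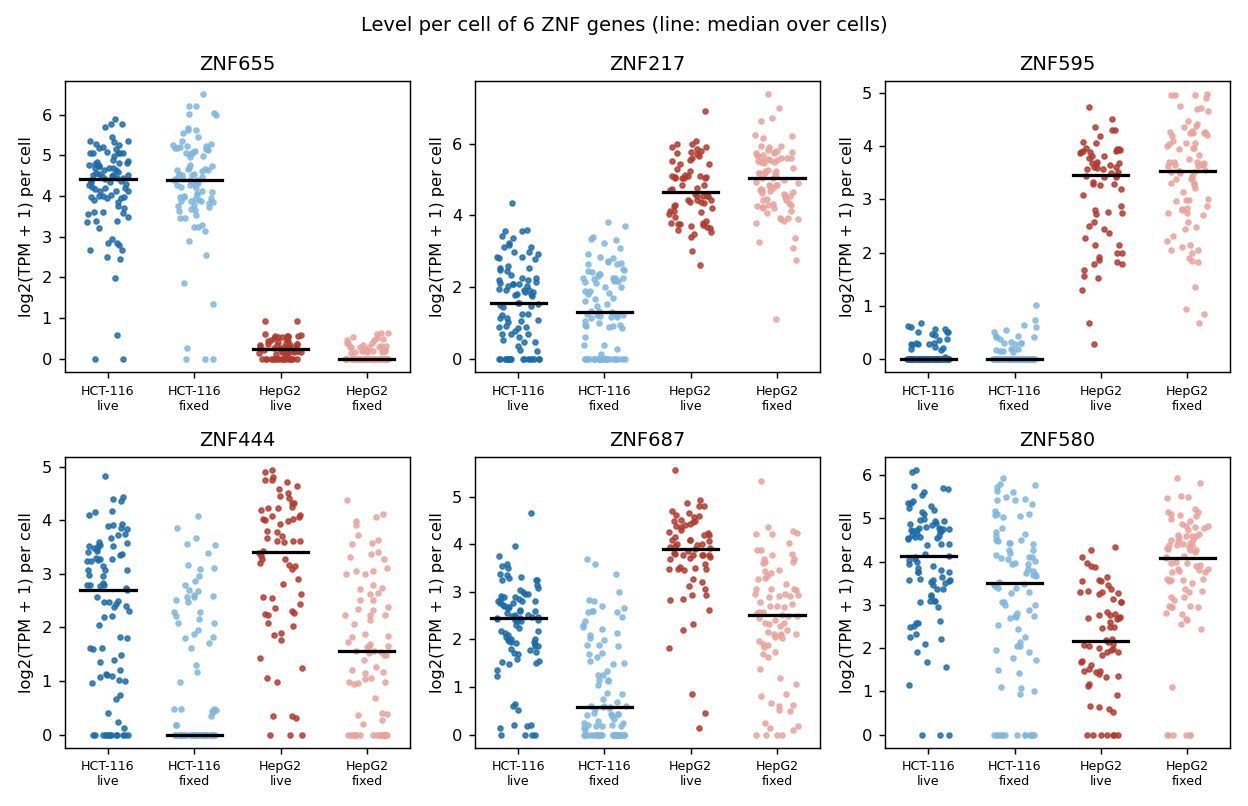
Level per cell, as log2(TPM + 1), of 6 ZNF genes in the 4 groups, with 1 point per cell and a bar at the median. ZNF655 is near 0 in all HepG2 cells, ZNF217 and ZNF595 are low in HCT-116, ZNF444 and ZNF687 are lower in fixed cells of both lines, and ZNF580 is higher in fixed than in live HepG2 cells.

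In counts over all members, levels were more often higher in HepG2, and this has to be read with the way the members were chosen, since 77 of them passed the mean through HepG2 alone and 13 through HCT-116 alone. In live cells 59 of 160 members were at least 2-fold higher in HepG2, against a background of 17.8%, and 7 were at least 2-fold lower, against 17.4%. In fixed cells 55 were higher (background 17.5%) and 6 were lower (16.7%). Those higher in both treatments numbered 52, a count with no background beside it. The median log2 ratio of the members was 0.63 in live and 0.51 in fixed cells, against 0.01 and 0.00 for all genes past the mean. With ribosomal RNA left out and cells rescaled, these medians were 0.49 and 0.49, against -0.15 and -0.03 for all genes.

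Set against genes that passed the mean in the same way, the members lay close to the background or below it. Of the 77 members that reached 5 TPM in HepG2 alone, 55 (71.4%) were 2-fold higher there in live cells and 51 (66.2%) in fixed cells, and of the 1294 such genes of all kinds 69.5% and 62.3% were. Thus 51 of the 55 members higher in fixed cells had passed through HepG2 alone. Of the 70 members past the mean in both lines, 4 were 2-fold higher and 3 were 2-fold lower in live HepG2 cells, against 10.3% and 11.4% of the 6122 genes of all kinds. In fixed cells 4 of these 70 were higher and 1 was lower, against 11.3% and 11.8%. Most members past the mean in both lines stayed within 2-fold between them.

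**Figure D2:**
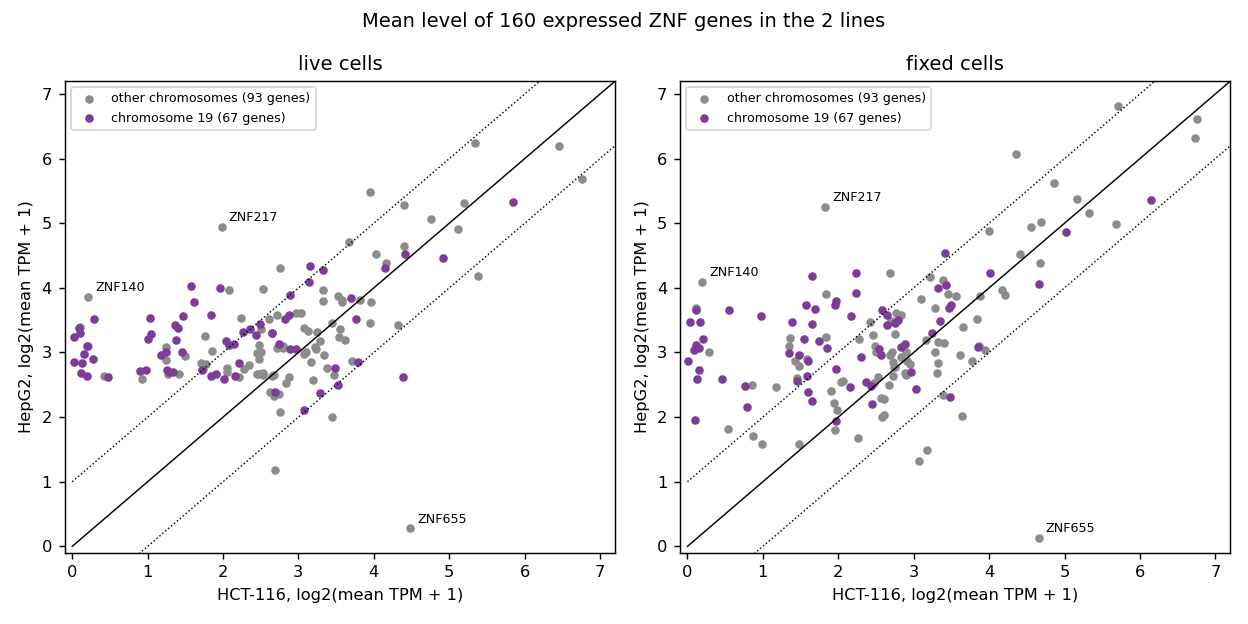
Mean level of the 160 ZNF genes in HCT-116 (x axis) and HepG2 (y axis), as log2(mean TPM + 1), in live cells (left) and fixed cells (right). The solid line marks equal levels and the dotted lines a 2-fold difference, and purple points are the 67 genes on chromosome 19, many of which lie above the upper dotted line.

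Members on chromosome 19 made up 37 of the 59 genes higher in live HepG2 cells. Of 252 listed ZNF genes there, 67 were members. Of these, 37 among live and 36 among fixed cells were 2-fold higher in HepG2, and their log2 ratio had a median of 1.06 and 1.11. Of the 93 members on other chromosomes 22 and 19 were higher, with medians of 0.30 and 0.13. The 490 other genes of chromosome 19 past the mean had medians of -0.28 and -0.18, but they were not matched to the members on how they passed it. Here too the route past the mean differed, since 44 of the 67 members on chromosome 19 and 33 of the 93 elsewhere had passed through HepG2 alone. Among these, 36 of 44 on chromosome 19 and 19 of 33 elsewhere were 2-fold higher in live HepG2 cells, and 35 and 16 were in fixed cells. Of the 1294 genes of all kinds that passed through HepG2 alone, 69.5% were 2-fold higher in live and 62.3% in fixed cells. Among members past the mean in both lines, 1 of 19 on chromosome 19 and 3 of 51 elsewhere were 2-fold higher under each treatment.

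Neighbouring members were grouped into runs of ZNF genes with starts up to 500 kb apart, and 18 runs held 3 or more members. In live cells 8 of these had every member higher in HepG2, 1 had every member lower and 9 had members on both sides, and the counts were the same in fixed cells. Over all 160 members, 26.9% were lower in live HepG2 cells by any amount. The 3 runs with 10 or more members, all on chromosome 19, were made up largely of members that had passed through HepG2 alone (10 of 11, 12 of 13 and 8 of 10 in the order below). In the run from ZNF101 to ZNF254 (chr19:19668153-24129968 on GRCh38), 9 of 11 members in live and 10 of 11 in fixed cells were 2-fold higher in HepG2, with medians of 2.23 and 2.57 on the log2 scale. In the run from ZNF175 to ZNF331 (chr19:51571283-53580269), 10 and 11 of 13 were higher, with medians of 1.74 and 1.67. In the run from ZNF653 to ZNF791 (chr19:11483429-12633834), 7 of 10 were higher in each treatment, with medians of 1.77 and 1.56.

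Smaller runs varied. In the run from ZNF414 to ZNF846, also on chromosome 19, the 3 members ZNF317, ZNF121 and ZNF562 were all lower in HepG2, with a median of -0.92 in live cells and -0.78 in fixed cells, and 0 of them had passed through HepG2 alone. In the run from ZNF628 to ZNF835 near the end of 19q, 0 of 4 members were 2-fold higher. Outside chromosome 19, all 4 members of the run from ZNF605 to ZNF268 on chromosome 12 (ZNF26, ZNF84, ZNF140 and ZNF268), each past the mean in HepG2 alone, were 2-fold higher, whereas 0 of 5 were in the run from ZNF251 to ZNF252P on chromosome 8. Genes in a run are similar in sequence and are not independent of each other.

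A total of 3 members were 2-fold lower in HepG2 under both treatments, namely ZNF655, ZNF197 and ZNF512. This count has no background beside it. ZNF197, which binds the VHL tumour suppressor, had means of 5.47 TPM (live) and 7.39 TPM (fixed) in HCT-116 and of 1.26 TPM (live) and 1.51 TPM (fixed) in HepG2. Its annotated span overlaps that of ZNF35 on the same strand. ZNF512 had 9.90 and 11.5 TPM in HCT-116 and 2.996 and 3.05 TPM in HepG2. ZNF330, ZNF580, ZNF584 and ZNF593 were 2-fold lower there in live cells alone, and ZNF317, ZNF343 and ZNF692 in fixed cells alone. Of these ZNF343 had the lowest ratio, at -1.67 in fixed and -0.68 in live cells.

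The partners through which KRAB zinc fingers act were present in every group. All 12 genes of the list (TRIM28, SETDB1, CBX1, CBX3, CBX5, ATRX, DAXX, MORC3, SMARCAD1, ATF7IP, DNMT1 and UHRF1) passed 1 TPM in 50% or more of the cells of each group. Between the lines, CBX5, the HP1 alpha protein, was higher in HepG2 (36.2 and 33.1 TPM, live and fixed) than in HCT-116 (6.37 and 7.97 TPM), as was SETDB1 among live cells (22.4 against 9.65 TPM). SMARCAD1, a chromatin remodeler, was lower in live HepG2 cells (3.61 against 10.91 TPM, a log2 ratio of -1.37). These were 2 genes higher and 1 lower of 12 in live cells (16.7% and 8.33%). Of all genes past the mean, 17.8% were higher and 17.4% lower, so these counts were not above the background. The median log2 ratio of the list was -0.03 in live and 0.13 in fixed cells. Between treatments, TRIM28 went from 15.7 TPM (live) to 32.8 TPM (fixed) in HCT-116, 1 of the 2 genes called there, and from 18.7 to 35.9 TPM in HepG2, just under 2-fold on the scale used. UHRF1 was 2-fold lower in fixed cells of both lines, at log2 ratios of -1.45 and -1.52. Of all genes past the mean, 0.501% were higher and 5.85% lower in fixed HCT-116 cells, and 1.33% and 6.89% in HepG2. A list of 12 genes is too short to set its share beside these.

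Between live and fixed cells the members differed little. In HCT-116, 5 of 160 were at least 2-fold lower in fixed cells, against a background of 5.85%, and 0 were 2-fold higher, against 0.501%. In HepG2, 7 were lower (background 6.89%) and 1 was higher (1.33%). These shares were under the background. The members' log2 ratios of fixed to live had a median of 0.04 in HCT-116 and -0.01 in HepG2, where all genes past the mean had 0.15 and 0.14. Live levels chose the members and the background genes alike, and the part of this choice in the counts and medians was not tested. For genes chosen at a mean of 5 TPM over all cells, the members had medians of 0.07 and 0.10. All genes chosen in this way had 0.17 and 0.17. Without ribosomal RNA the medians of the members were -0.12 and -0.17 and those of all genes -0.11 and -0.01, so that the sign of the HCT-116 median depended on this scaling. Ribosomal RNA took a mean of 255550 TPM in HCT-116 when live and 77850 TPM when fixed, and 55251 and 23344 TPM in HepG2.

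**Figure D3:**
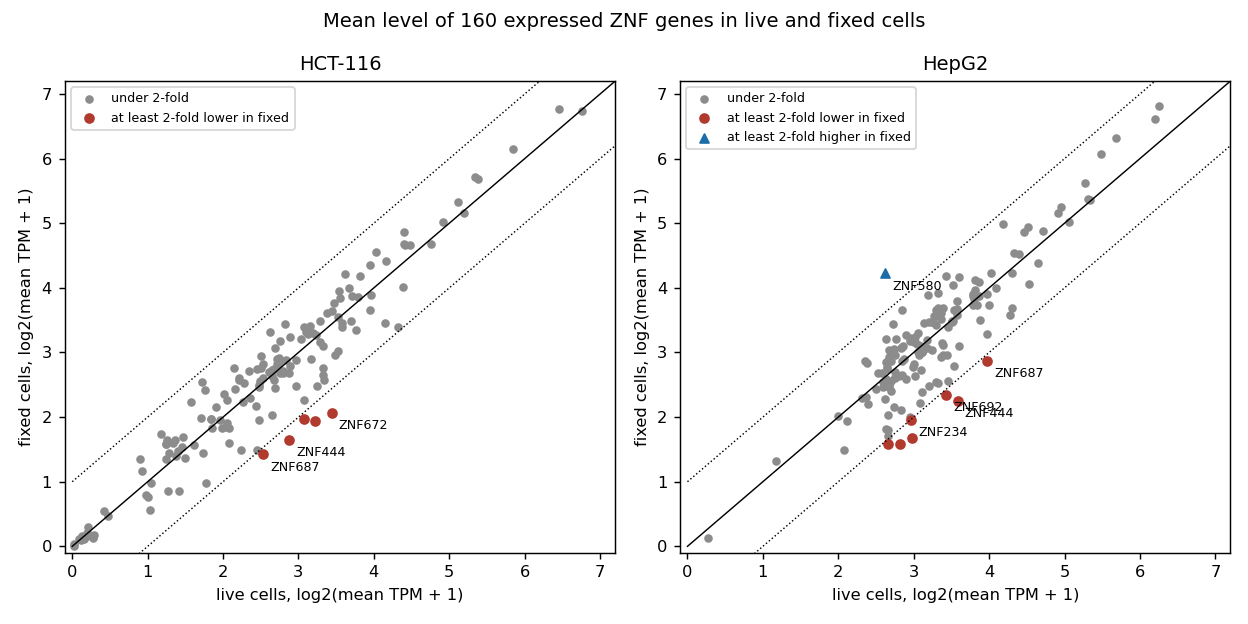
Mean level of the 160 ZNF genes in live (x axis) and fixed cells (y axis), as log2(mean TPM + 1), for HCT-116 (left) and HepG2 (right). The solid line marks equal levels, the dotted lines mark 1 on this log2 scale, and red points are the 5 and 7 genes that were 2-fold lower in fixed cells.

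ZNF444 and ZNF687 were the 2 members (1.25%) 2-fold lower in fixed cells of both lines. No share of all genes is set beside this count for both lines, so it is a description only. ZNF687 is a zinc finger protein that works with the chromatin reader ZMYND8. In HCT-116 its lowest, median and highest values were 0, 4.43 and 24.1 TPM for live cells and 0, 0.485 and 11.99 TPM for fixed cells. In HepG2 they were 0.101, 14.04 and 46.3 TPM for live cells and 0, 4.71 and 39.3 TPM for fixed cells. The lowest live HepG2 value came from the column that is identical to a fixed one, and the next lowest live cell had 0.359 TPM. The ranges overlapped while the medians were far apart, and the log2 ratio of the means was -1.11 in HCT-116 and -1.10 in HepG2. ZMYND8 did not share this, with log2 ratios of 0.07 and 0.30.

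ZNF444, a SCAN domain protein with a GC content of 68.7%, had a median of 5.53 TPM in live HCT-116 cells and was at 0 in more than 50% of fixed ones. It was above 0 in 78 of 91 live HCT-116 cells (85.7%, exact 95% interval 76.8 to 92.2) and in 44 of 92 fixed cells (47.8%, 37.3 to 58.5). In HepG2 its share went from 95.6% of live to 77.1% of fixed cells, and its median from 9.58 to 1.97 TPM. The log2 ratios were -1.22 and -1.34.

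The other genes 2-fold lower in HCT-116 were ZNF672 (log2 ratio -1.37), ZNF668 (-1.28) and ZNF428 (-1.11). In HepG2 the ratios of the first 2 were -0.89 and -0.87, and that of ZNF428 was -0.17. The other genes 2-fold lower in HepG2 were ZNF496 (-1.29), ZNF212 (-1.24), ZNF692 (-1.09), ZNF276 (-1.08) and ZNF234 (-1.01), and their ratios in HCT-116 were -0.81, -0.78, -0.93, -0.97 and -0.05. ZNF234 was near 0 in HCT-116, so its last value says little. ZNF668, named for a role in DNA repair, overlaps ZNF646 on the opposite strand, and reads of the pair may not be separable.

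Among members at a mean of 5 TPM over all cells of a line, the highest ratios of fixed to live were those of ZNF691 (0.69), ZNF627 (0.61), ZNF277 (0.59), ZNF22 (0.53) and ZNF410 (0.46) in HCT-116, all under 2-fold. In HepG2 ZNF14 (0.82), ZNF330 (0.81), ZNF724P (0.75) and ZNF675 (0.72) came after ZNF580, the 1 member 2-fold higher in fixed cells.

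ZNF580 had, in HepG2, lowest, median and highest values of 0, 3.48 and 19.3 TPM for live cells and 0, 15.8 and 59.7 TPM for fixed cells, a log2 ratio of 1.60. In HCT-116 these were 0, 16.5 and 68.6 TPM for live cells and 0, 10.35 and 60.5 TPM for fixed cells, a ratio of -0.37. Live HepG2 cells had the lowest median of the 4 groups. The span of ZNF580 (chr19:55641002-55643470 on GRCh38) lies inside that of ZNF581 on the same strand. The sum of both genes had means of 49.2 TPM (live) and 46.7 TPM (fixed) in HCT-116 and of 26.3 TPM (live) and 45.95 TPM (fixed) in HepG2, log2 ratios of -0.07 and 0.78. The gap in HepG2 was thus smaller for the sum than for ZNF580 alone.

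GC content varied with the change. The reference transcripts of the members had a median GC content of 42.7%, against 47.6% for all genes past the mean. Across the 160 members, GC content and the change from live to fixed had a Spearman's rho of -0.37 in HCT-116 and -0.44 in HepG2, and across 8250 genes past the mean it was -0.51 and -0.31. Genes share libraries and are not independent, these are descriptions, and the part of GC content in the change was not tested. With transcript length rho was -0.00 and -0.11 for the members.

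In the lowest tertile of GC content, up to 40.7%, 0 of 54 members were 2-fold lower in either line, and the log2 ratio had a median of 0.15 in HCT-116 and 0.18 in HepG2. In the highest tertile, from 45.8%, 5 of 54 in HCT-116 (9.26%) and 6 of 54 in HepG2 (11.1%) were 2-fold lower, and the medians were -0.08 and -0.18. Of all genes in the same ranges, 1.28% and 2.11% were 2-fold lower at the low end and 9.22% and 9.93% at the high end, so the members' shares at the high end were close to the background. All genes in these ranges had medians of 0.32 and 0.26 at the low end and of -0.03 and 0.01 at the high end. Every member that was 2-fold lower lay in the highest tertile except ZNF234, whose GC content is 43.1%. ZNF580 lay there as well, at 69.2%.

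**Figure D4:**
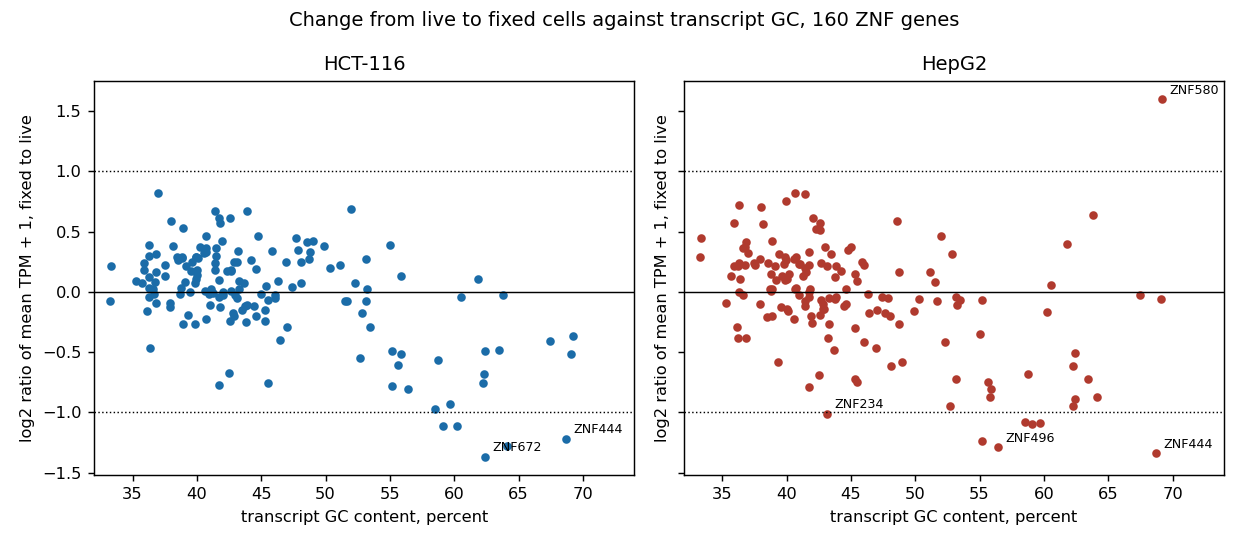
Log2 ratio of mean TPM + 1, fixed to live, against the GC content of the reference transcript in percent, for 160 ZNF genes in HCT-116 (left) and HepG2 (right), 1 point per gene. Dotted lines mark a log2 ratio of 1 and -1, and the genes below the lower line lie at a GC content above 55% except ZNF234.

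Fewer members were detected in fixed cells, as were fewer genes of all kinds. In HCT-116 a live cell had a TPM above 0 for 120.9 ± 9.14 of the 160 genes (SD, 91 cells) and a fixed one for 104.2 ± 14.6 (92 cells), and in HepG2 a live cell for 146.6 ± 9.72 (68 cells) and a fixed one for 135.3 ± 14.9 (83 cells). The mean number thus dropped by 13.8% in HCT-116 and by 7.70% in HepG2. For all listed genes it dropped by 12.7% in HCT-116 (from 12029 to 10506) and by 12.6% in HepG2 (from 13858 to 12118). Thinned to 500000 reads, which left out 3 fixed HCT-116 cells, the means were 93.94 for live and 79.95 for fixed HCT-116, and 121.05 for live and 111.39 for fixed HepG2. Before thinning, the reads matched to these genes gave 107.81, 90.98, 133.60 and 122.01 in the same order. The order of the groups was the same at equal depth, and the ranges over cells overlapped between live and fixed cells of each line.

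**Figure D5:**
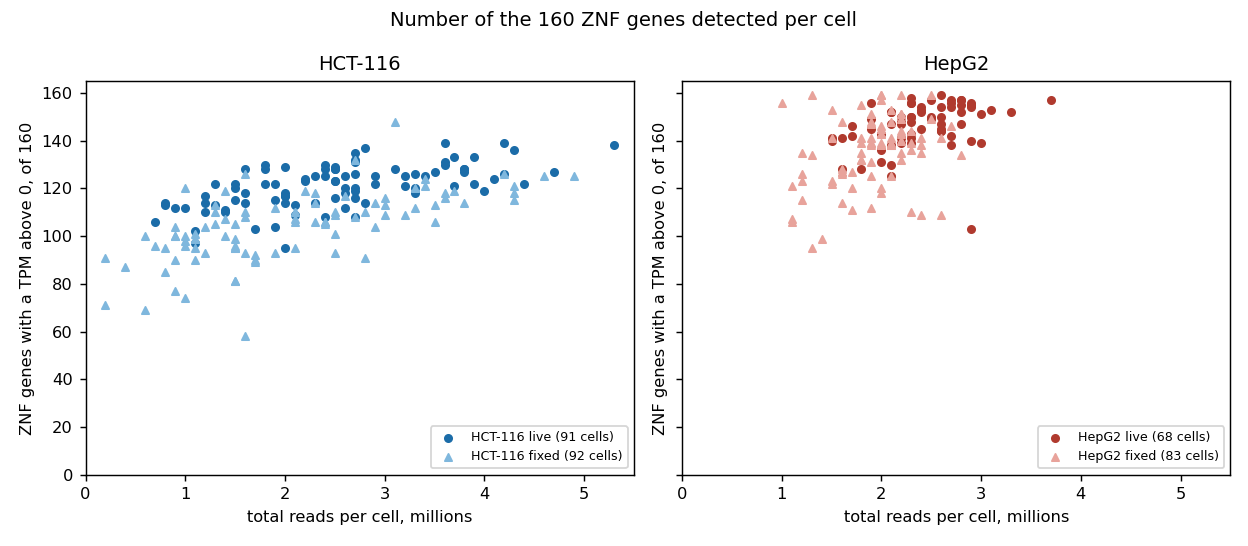
Number of the 160 ZNF genes with a TPM above 0 (y axis) against total reads in M, mega reads (x axis), 1 point per cell, for live and fixed cells of HCT-116 (left) and HepG2 (right). Fixed HCT-116 cells lie below live ones on average (104.2 against 120.9), and HepG2 cells lie above HCT-116 cells on average.

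By gene, the share of cells above 0 had a median of 82.4% (live) and 67.4% (fixed) in HCT-116, and of 95.6% (live) and 89.2% (fixed) in HepG2, where all genes past the mean had 97.8%, 91.3%, 98.5% and 95.2%. Many genes of high level were above 0 in every cell of both treatments, so the direction was counted over genes whose share differed. It was lower in fixed cells for 92.9% of such members in HCT-116 and for 86.9% in HepG2, against 90.9% of 6843 and 78.99% of 6315 genes past the mean. Above 0, the widest drop in HCT-116 belonged to ZNF668, from 93.4% (exact 95% interval 86.2 to 97.5) to 46.7% (36.3 to 57.4) of cells, and in HepG2 to ZNF212, from 89.7% (79.9 to 95.8) to 49.4% (38.2 to 60.6).

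A lower share did not always mean a lower mean. In HCT-116, 74 members (48.1% of those whose share differed, against 48.8% of such genes of all kinds) had a higher mean TPM in fixed cells and yet a smaller share of cells above 0, and in HepG2 50 did (34.5%, against 35.3%). ZNF691 in HCT-116 was among these, with a mean of 5.19 ± 5.66 TPM (live) and 8.97 ± 10.7 TPM (fixed) and a share of 71.4% and 60.9%. ZNF627 had 6.07 ± 5.85 and 9.80 ± 11.2 TPM and shares of 86.8% and 69.6%. In both genes the SD over cells was wider in fixed cells.

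Summed over all 160 genes, a HCT-116 cell held a mean of 1339 TPM (live) and 1412 TPM (fixed) and a HepG2 cell 1758 TPM (live) and 1890 TPM (fixed), but with ribosomal RNA left out the order of live and fixed turned, to 1822 and 1547 TPM in HCT-116 and 2130 and 2031 TPM in HepG2. Live levels chose the members, so the order of the lines is given as a description. Of the members, 77 passed through HepG2 alone and 13 through HCT-116 alone, against 1294 and 1161 genes of all kinds. The part of the choice in this order was not tested. The change in ribosomal RNA moved with the treatment, and its part in these sums was not tested beyond this rescaling.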

How the data were processed

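Single live and methanol-fixed cells of HCT-116 and HepG2 were profiled with Smart-seq2. According to the submitters' notes, the authors quantified reads with kallisto 0.46.0 on GRCh38 and, with tximport, deposited gene values as TPM. The transcript values deposited are CPM, not divided by length. They gave total reads (from the spacing of CPM values, to 0.1 M) and the thinning to 500000 reads, where 89.4% of the members' values above 0 had a matched read. Groups came from the labels, and columns were matched by group only. The members and gene lists were chosen with earlier results of these data known.

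Changes are log2 ratios of mean TPM + 1 (pseudocount 1), which understate changes of low genes, and a gene was called at 2-fold. A gene not listed in a table counted as 0. Each interval on a share is an exact Clopper-Pearson one (95%), for counting error alone. Named genes were the 10 with the highest live mean per line; the 5 lowest and 5 highest ratios of fixed to live per line, and of HepG2 to HCT-116 in fixed cells, among genes at a mean of 5 TPM over all cells; those at the limit of 5 TPM; and those with a listed role. Genes near 0, other genes called at 2-fold and examples of overlaps, runs and shares were named after their values were seen. Length and GC content are of the GENCODE 44 reference transcript, and 8250 of 8577 genes had both. Among members, 15 overlap another ZNF gene, and reads of such pairs may not be separable. Python 3.11.15, numpy 2.4.6, pandas 2.3.3, scipy 1.17.1 and matplotlib 3.10.9 were used. The ratios were run on simulated data with changes well beyond 2-fold and higher detection than many members had, which checks the calculation only. Pseudocount, scaling, means, thinning and left-out columns were varied.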

Additional observations from a re-analysis of the deposited data

Results flagged for a closer look

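ZNF580 went in opposite directions in the 2 lines: fixed cells were lower than live cells in HCT-116 (log2 ratio -0.37) and higher in HepG2 (1.60), a gap of 1.98 on the log2 scale. The difference was not tested, since each line and treatment is 1 sample. Over the other settings the HepG2 ratio ranged from 1.43, with cells rescaled by the median ratio, to 1.76, with a pseudocount of 0.1. ZNF580 lies within ZNF581, and how reads were shared between the pair was not tested.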

How the results depend on the processing

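Across 8 other settings the medians of the log2 ratios moved by less than 1 SD over cells. That SD is the spread of single cells, a loose limit for a ratio of means over many cells. Within it, the median of fixed to live in HCT-116 went from 0.04 to -0.12 without ribosomal RNA. Of 60 genes followed in each comparison no called one changed sign. Shares of members called moved more. For fixed against live HCT-116 cells, 3.12% were 2-fold lower. This became 5% with a pseudocount of 0.1 (and 0.625% higher in place of 0), 6.88% with the mean of log2(TPM + 1) and 7.5% without ribosomal RNA, where all genes past the mean had 8.09%, 8.42% and 10.2%. For HepG2, 4.38% were lower. This became 8.12% with a pseudocount of 0.1, 6.88% with the mean of log2(TPM + 1), 6.88% after rescaling by the median ratio, 7.5% without ribosomal RNA, 2.61% for genes at a mean of 5 TPM over all cells and 2.35% at a mean of 1 TPM, where all genes had 8.62%, 7.47%, 8.44%, 8.72%, 5.45% and 6.11%. Between the lines, 7.5% of members were lower in live HepG2 cells without ribosomal RNA, in place of 4.38%, where all genes went from 17.4% to 21.4%. At a mean of 1 TPM the rule gave 383 genes in place of 160, by construction. For the other values that moved, the cause was not tested. Shares are given because the number of genes differs between settings.

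By gene, the median share of cells at a TPM above 1 was 71.4% (live) and 55.98% (fixed) in HCT-116 and 85.3% and 78.3% in HepG2, and after thinning 64.98%, 49.4%, 81.3% and 74.6%. Summed TPM without ribosomal RNA was 1822 for live HCT-116 and 2130 for live HepG2 cells. Pairing cells on total reads (53 and 38 pairs) or leaving out the identical and similar columns moved no share of called members by over 1.5 times. The settings for numbers and summed TPM per cell, and the left-out columns for shares of cells, were chosen after seeing the data. No paired analysis was possible because the columns carry none of the labels' replicate numbers and no test was made. Shallow cells limit detection of genes at a few TPM.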
